A study of Caenorhabditis elegans with 2 samples.

Results

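The gcy genes of *C. elegans* encode guanylyl cyclases, the enzymes that make the second messenger cyclic GMP, and many of them act in sensory neurons. Cyclic GMP opens the TAX-2 and TAX-4 channel of those neurons and activates the protein kinase EGL-4, and phosphodiesterases break it down. The family has a receptor-type branch, which spans the membrane, and a soluble branch, with members that sense oxygen. AHR-1, the worm member of the aryl hydrocarbon receptor family, pairs with AHA-1 on DNA and is known as a regulator of soluble cyclase genes in the oxygen-sensing URX neurons. The question addressed here is where AHR-1 was found relative to the 5′ ends of these genes.

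The members are all protein-coding genes of the Ensembl WBcel235 annotation whose symbol starts with gcy-, 31 of 19973 coding genes. The genes gcy-31 to gcy-37 are the 7 soluble cyclases, and the other 24 are receptor-type. The rule uses gene names and no measured value. The measurement is chromatin immunoprecipitation followed by sequencing (ChIP-seq) in 1 group of hermaphrodite late embryos of strain OP562, with 2 biological replicates. The strain carries the transgene wgIs562, in which AHR-1 has GFP and FLAG at its C terminus, in the background unc-119(tm4063) III. Whole animals were taken 3.5 h after egg bleaching, and the antibody was against GFP. There was no second condition, so no test between conditions could be made. The read depth behind the lists is unknown.

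A gene was counted in a list when a region's summit, its point of highest signal, lay from 1500 bp upstream to 500 bp downstream of any 5′ end of its coding transcripts. The 4 deposited lists are those of replicate 1 (22949 regions), replicate 2 (23313 regions), both replicates pooled (13858 regions) and IDR (479 regions), a subset chosen for how alike regions rank in the replicates. The IDR regions are the strongest of the pooled list. The pooled and replicate lists were deposited as input for that choice and hold peaks together with background, so a low rank in them is weak evidence of binding. Signal is the authors' value for each region on a scale of its own in each list, and ranks count from the strongest. Whole embryos were used, so a site occupied in a few neurons and a site occupied weakly in many cells cannot be told apart. Expression was not measured, so which neurons held each cyclase was not checked.

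The sequences shown here are the reference under the regions that the account turns on. They come from the RefSeq WBcel235 assembly, plus strand, read 5′ to 3′. The first is the isoleucine tRNA gene F57F5.t1 upstream of gcy-33 with 40 bases to each side, at chrV:12002136-12002300. It is shown because the strongest region at any cyclase gene had its summit on it, and capitals mark the tRNA exons. The other sequences are 101 bases centred on a summit. They cover the weaker gcy-33 region (chrV:12002341-12002441), the gcy-34 region (chrV:13386756-13386856) and the gcy-27 region, the strongest at a receptor-type gene (chrIV:17437740-17437840). Capitals in these would mark GCGTG or its reverse complement, the core of the site that AHR and its partner bind, and none of them holds it.
F57F5.t1: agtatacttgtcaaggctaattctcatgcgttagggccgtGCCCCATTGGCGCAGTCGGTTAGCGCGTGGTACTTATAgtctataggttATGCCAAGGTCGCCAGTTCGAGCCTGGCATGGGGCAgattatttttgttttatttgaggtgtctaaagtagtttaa
gcy-33, weaker region: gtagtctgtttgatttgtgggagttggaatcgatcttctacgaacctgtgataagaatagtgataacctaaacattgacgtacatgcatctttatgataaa
gcy-34: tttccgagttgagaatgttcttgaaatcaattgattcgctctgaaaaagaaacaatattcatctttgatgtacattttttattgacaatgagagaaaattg
gcy-27: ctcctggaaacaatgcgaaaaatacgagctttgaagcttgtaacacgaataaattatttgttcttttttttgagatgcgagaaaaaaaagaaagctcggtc

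One cyclase gene, gcy-33, stood out from the family, and its region lay on a tRNA gene. It was the 1 gcy gene of 31 with an IDR region (3.23%), against 2.58% of all coding genes. In the pooled list 7 gcy genes had a region (22.6%), against 29.9% of all coding genes. They were gcy-31, gcy-33, gcy-34 and gcy-35 among the soluble cyclases, and gcy-22, gcy-27 and gcy-28 among the receptor-type ones. In replicate 1, 14 gcy genes had a region (45.2%), against 42.6% of all coding genes. In replicate 2 it was 13 (41.9%), against 44.5% of all coding genes. A region in both replicate lists was found at 10 gcy genes (32.3%), against 26.1% of all coding genes. As a family, the cyclase genes were thus near the background share in each list.

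At some cyclase genes the replicates marked different places, as they did at other coding genes. Of the 10 gcy genes with a region in both replicate lists, 6 had regions that overlapped by at least 1 bp (60%), against 77.1% of the 5218 coding genes with both. The 6 were gcy-22, gcy-27, gcy-28, gcy-33, gcy-34 and gcy-35. At gcy-1, gcy-18, gcy-21 and gcy-36 the regions of the replicates lay apart. Another 4 of 31 gcy genes had a region in replicate 1 but not in replicate 2, against 16.5% of all coding genes, and 3 of 31 the reverse, against 18.3% of all coding genes. No region of any list lay in the window of 14 of 31 gcy genes (45.2%), against 38.8% of all coding genes. The 14 were the soluble gcy-32 and gcy-37 and the receptor-type gcy-4, gcy-5, gcy-7, gcy-8, gcy-11, gcy-13, gcy-14, gcy-17, gcy-19, gcy-23, gcy-25 and gcy-29.

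**Figure D1:**
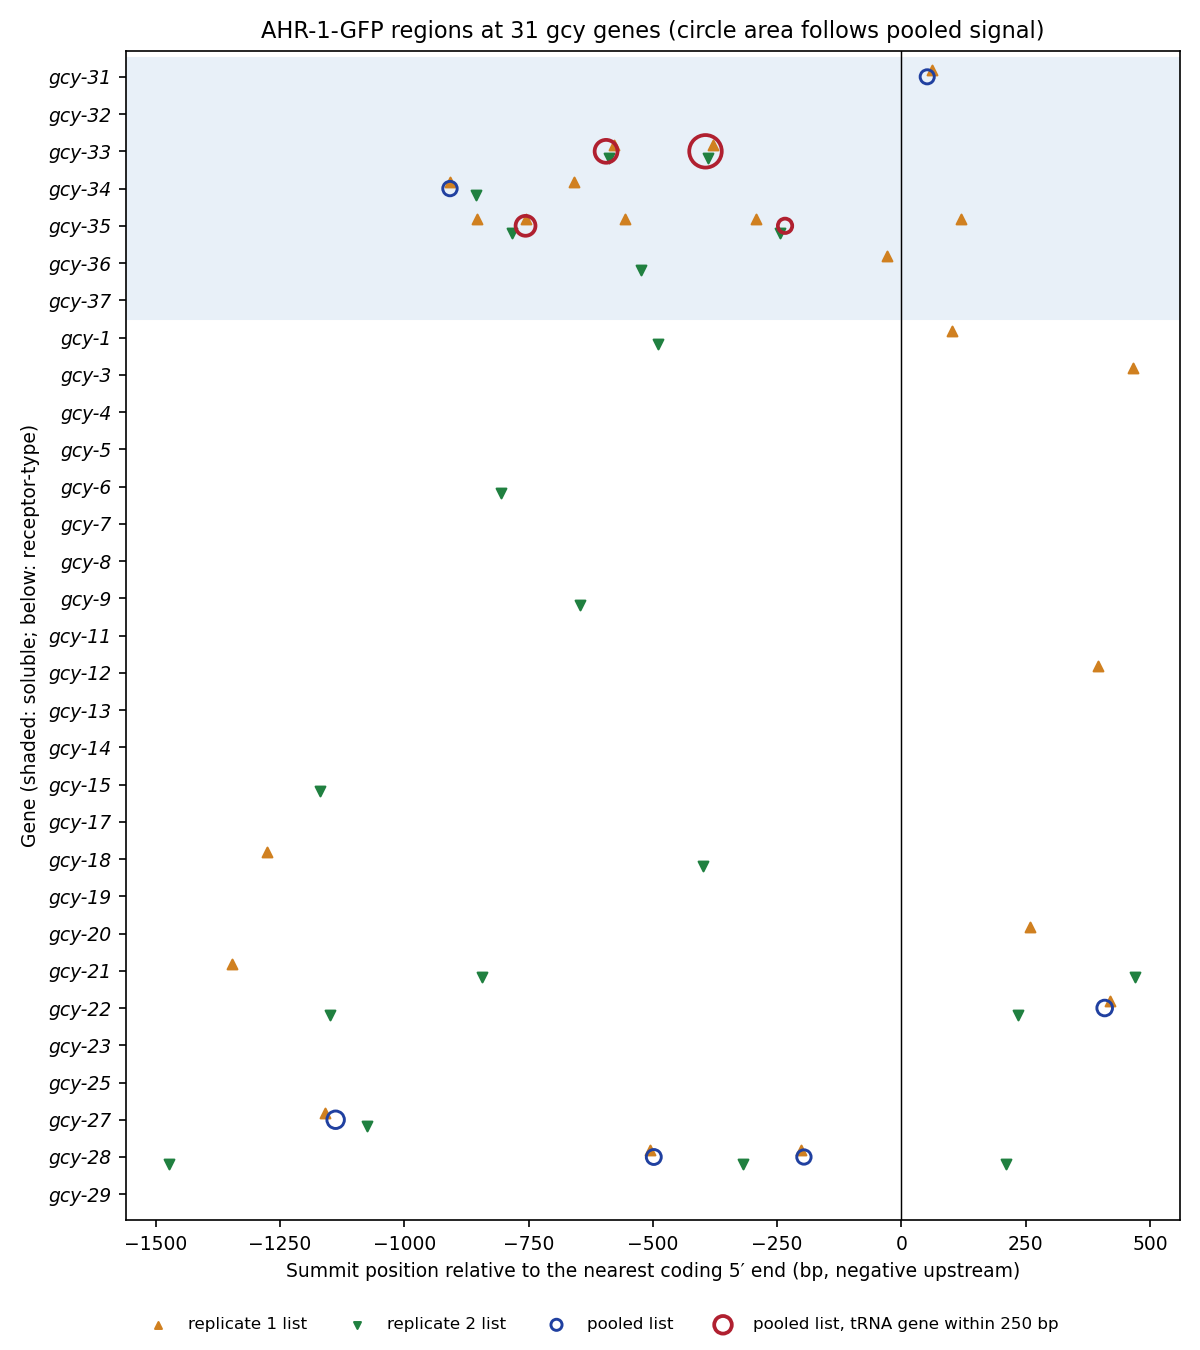
Position of each region's summit relative to the nearest coding 5′ end of its gene (x axis, bp, negative upstream) for the 31 gcy genes (y axis, soluble genes shaded, receptor-type below). Triangles are regions of the replicate lists and circles those of the pooled list, with area following pooled signal and red for a tRNA gene within 250 bp of the summit. The largest circle is the gcy-33 region of signal 162.5, and 14 rows are empty.

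Soluble cyclase genes had a region more often than receptor-type ones in every list, as a description of these genes without a test. In the pooled list they were 4 of 7 soluble genes (57.1%) and 3 of 24 receptor-type genes (12.5%). In the IDR list they were 1 of 7 (14.3%) and 0 of 24. In replicate 1 they were 5 of 7 (71.4%) and 9 of 24 (37.5%), and in replicate 2 they were 4 of 7 (57.1%) and 9 of 24 (37.5%). In both replicate lists they were 4 of 7 (57.1%) and 6 of 24 (25%). The best pooled region of each gene that had one reached a median signal of 46.35 over the 4 soluble genes, 37.51 over the 3 receptor-type genes and 34.78 over all 5974 coding genes with a pooled region. The soluble median lies midway between gcy-35 (60.79) and gcy-34 (31.9). The best regions of gcy-35 and of gcy-33, the highest at 162.5, lie near tRNA genes. The best pooled signals of the other soluble genes, 31.9 at gcy-34 and 30.59 at gcy-31, were below those of all 3 receptor-type genes (34.24 to 46.88) and below the 34.78 of all coding genes.

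**Figure D2:**
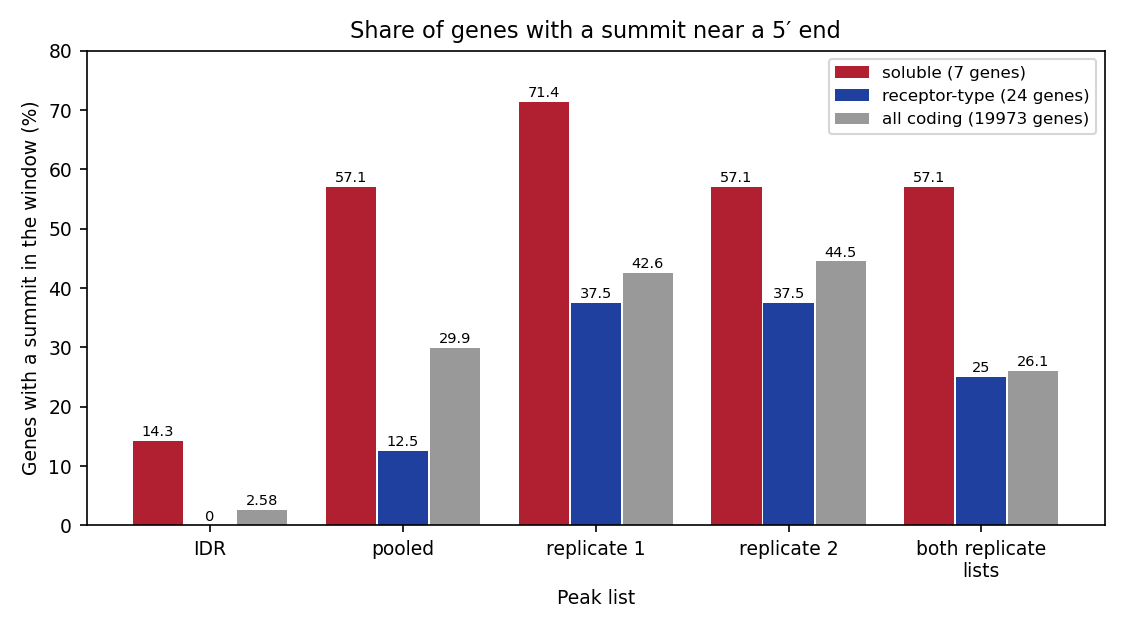
Share of genes with a summit in the window (y axis, %) in each list and in both replicate lists (x axis), for soluble cyclases, receptor-type cyclases and all coding genes. In the pooled list the bars stand at 57.1%, 12.5% and 29.9%, and with 7 soluble genes 1 gene moves a soluble bar by 14.3 points.

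The annotation of the genes also differed between the branches. Genes with several annotated 5′ ends have a wider window. A pooled region was found at 42.3% of coding genes with several, against 25.5% of those with 1. The part of window width in this difference was not tested. Among gcy genes it was found at 6 of 8 with several 5′ ends (75%), against 1 of 23 with 1 (4.35%). Several 5′ ends were annotated at 3 of 7 soluble genes and 5 of 24 receptor-type genes. Within the genes with several, 3 of 3 soluble and 3 of 5 receptor-type genes had a pooled region. Within those with 1, it was 1 of 4 soluble genes, gcy-34, and 0 of 19 receptor-type genes. Per 100 kb of window there were 31.1 pooled regions at soluble genes, 7.38 at receptor-type genes and 15.5 at all coding genes. The soluble value rests on 6 regions. Of these, 4 lay near a tRNA gene, and 2 of the 4 are overlapping regions at gcy-33.

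A tRNA gene lay in the window of 2 gcy genes, gcy-33 and gcy-35, both soluble, and of 0 receptor-type genes. Among all coding genes with a tRNA gene in the window, 21.9% had an IDR region, against 2.37% of those without one. Of the 10 pooled regions in gcy windows, 4 lay within 250 bp of a tRNA gene (40%), against 216 of the 6147 pooled regions in coding windows that lay near a small RNA gene (3.51%). All 4 belonged to gcy-33 and gcy-35. With summits near small RNA genes left out, the pooled counts were 2 of 7 soluble genes and 3 of 24 receptor-type genes, against 29.1% of all coding genes. With the same removal, 0 gcy genes had an IDR region. The part of the tRNA genes in the signal was not tested.

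The soluble cyclases gcy-31 and gcy-33 act in the BAG neurons, which sense carbon dioxide and falls in oxygen, as does the receptor-type gcy-9, needed there for carbon dioxide sensing. The gene gcy-33 lies on the minus strand at V 11995805 to 12001797. Its stronger region, at V 12001969 to 12002412, had a pooled signal of 162.5 and rank 78 of 13858. It was in the lists of both replicates, with a signal of 93.12 and rank 82 in replicate 1 and a signal of 66.86 and rank 91 in replicate 2. Pooled regions of like rank, the 50 on each side, had median ranks of 79 and 82 in the replicate lists, so the replicates placed this region much as they did its neighbours in rank.

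The summit of that region, at position 12002191, lay 394 bp upstream of the outermost gcy-33 5′ end and inside F57F5.t1, at V 12002176 to 12002260 on the plus strand. This tRNA-Ile gene is 85 bp long, with exons of 38 and 36 bp around an intron of 11 bp, and no other nuclear tRNA gene in the annotation has its sequence. The non-coding RNA gene F57F5.7 overlaps it. GCGTG began at base 25 of the tRNA gene, in its first exon, 9 bp from the summit. That core is common in genes of this kind: 28 of 29 tRNA-Ile genes held it on their sense strand, and 5 of the 29 had an IDR region. Over all 612 nuclear tRNA genes, 26 of the 136 with the core had an IDR region (19.1%), against 81 of the 476 without it (17%).

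The weaker gcy-33 region, at V 12002169 to 12002612, had a pooled signal of 80.35 and rank 365. It had a signal of 46.96 and rank 398 in replicate 1, and a signal of 35.51 and rank 363 in replicate 2. Its summit was intergenic, 594 bp upstream of gcy-33 and 131 bp from the tRNA gene, and had no GCGTG within 100 bp. The summits of the regions were 200 bp apart and the regions shared 244 bp, so they are not separate measurements. Both summits also lay in the window of the divergent gene cpr-9, which encodes a cathepsin B-like protease, 862 bp and 662 bp upstream of it. Whether the signal belongs to gcy-33, cpr-9 or the tRNA gene was not tested.

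**Figure D3:**
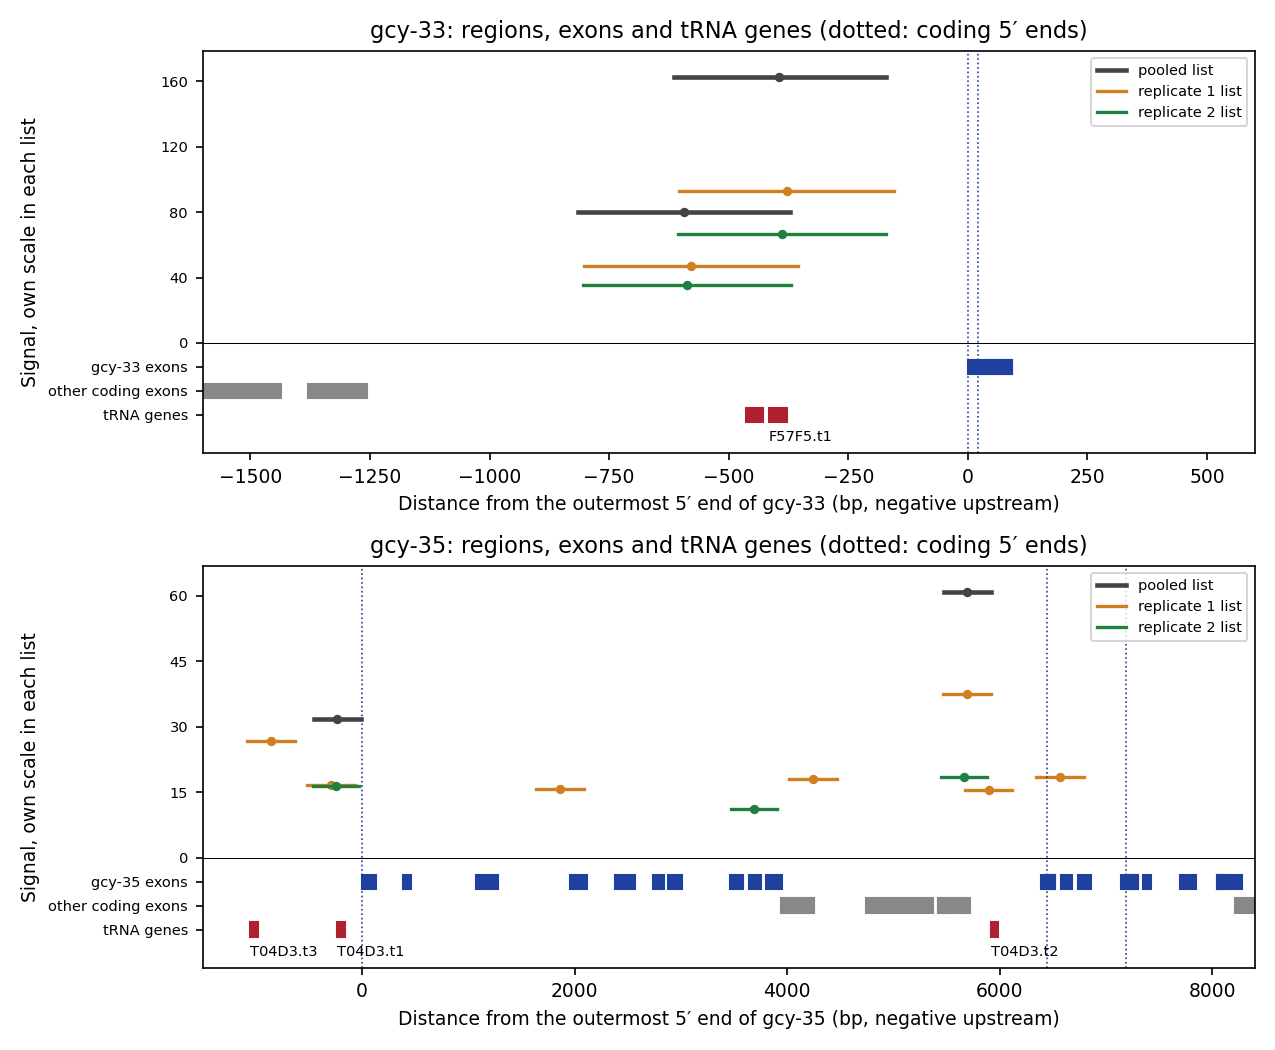
Regions around gcy-33 (top) and gcy-35 (bottom), drawn as bars with a dot at the summit, against distance from the outermost 5′ end (x axis, bp) and signal on each list's own scale (y axis). Exons and tRNA genes are drawn under the axis, and dotted lines mark coding 5′ ends. The gcy-33 summits stand on and beside F57F5.t1, and the stronger gcy-35 summit stands 5694 bp inside the gene, at the start of another coding gene.

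Of the other BAG genes, gcy-31 had 1 pooled region, at X 2427181 to 2427624, in an intron 52 bp downstream of a 5′ end. Its pooled signal was 30.59 and its rank 8864. It had a signal of 24.68 and rank 4949 in replicate 1 and no region in replicate 2, so it was not found in both replicates. At gcy-9 the window held no pooled region and 1 region of replicate 2, of signal 11.18 and rank 18277. In all, 2 of the 3 BAG genes had a pooled region, against 29.9% of all coding genes, and 1 of the 3 an IDR region, against 2.58% of all coding genes.

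The URX, AQR and PQR neurons sense oxygen with the soluble cyclases gcy-32, gcy-34, gcy-35, gcy-36 and gcy-37, and 2 of these 5 genes (40%) had a pooled region near a 5′ end, against 29.9% of all coding genes. None of the 5 had an IDR region, against 2.58% of all coding genes. The gene gcy-35, whose product works as a dimer with that of gcy-36 in oxygen sensing, lies on the plus strand at I 13325230 to 13333513 and ranked next to gcy-33 by its best region. That region, at I 13330702 to 13331145, had a pooled signal of 60.79 and rank 655, below the 479 of the IDR list. It had a signal of 37.43 and rank 777 in replicate 1, and a signal of 18.61 and rank 3166 in replicate 2. Regions of like pooled rank had median ranks of 892 and 1142, so it stood lower in replicate 2 than most of its neighbours in rank.

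The position of that region is less clear than its rank. Its summit was 756 bp upstream of an inner 5′ end of gcy-35, and 5694 bp downstream of the outermost one. It was also 3 bp downstream of the 5′ end of T04D3.5, a coding gene nested within gcy-35, and 223 bp from the tRNA-Gly gene T04D3.t2. That tRNA sequence is carried by 29 genes, so reads within it cannot be assigned to 1 of them, and how such reads were placed is unknown. The region ends just before that tRNA gene, which starts at I 13331147. Whether such reads bear on the region was not tested. A weaker gcy-35 region, at I 13324774 to 13325217, lay 234 bp upstream of the outermost 5′ end, on the tRNA-Gly gene T04D3.t1. It had a pooled signal of 31.78 and rank 7733, with a signal of 16.61 and rank 18833 in replicate 1 and a signal of 16.35 and rank 5324 in replicate 2. It is the pooled region of gcy-35 nearest its outermost 5′ end. Regions of like pooled rank had median ranks of 8420 and 8942, so it stood below them in replicate 1 and above them in replicate 2.

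The gene gcy-34 had 1 pooled region, at V 13386584 to 13387027, 908 bp upstream of its 5′ end and in an intron of the neighbouring gene somi-1, which encodes a zinc finger protein. Its pooled signal was 31.9 and its rank 7637. It had a signal of 20.36 and rank 10309 in replicate 1, and a signal of 13.32 and rank 11172 in replicate 2. The replicate regions overlapped, and both were weak. It was the soluble cyclase with a region in all 3 unthresholded lists and no tRNA gene near, since the nearest small RNA gene was 120397 bp away.

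At gcy-36 the replicate regions did not coincide. Replicate 1 had a region of signal 17.44 and rank 16590, 28 bp upstream of the 5′ end, and replicate 2 one of signal 12.51 and rank 13496, 524 bp upstream. The pooled list had none in the window, and 1 in an intron of gcy-36, 1210 bp into the gene, of signal 29.43 and rank 10189. At gcy-37 no list had a region in the window, while 3 pooled regions lay in introns 3159 to 5295 bp into the gene, the strongest of signal 38.98 and rank 3472. That region ranked 2858 in replicate 1 and 21751 in replicate 2. At gcy-32 there was no pooled region from 1500 bp upstream to the end of the gene.

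**Figure D4:**
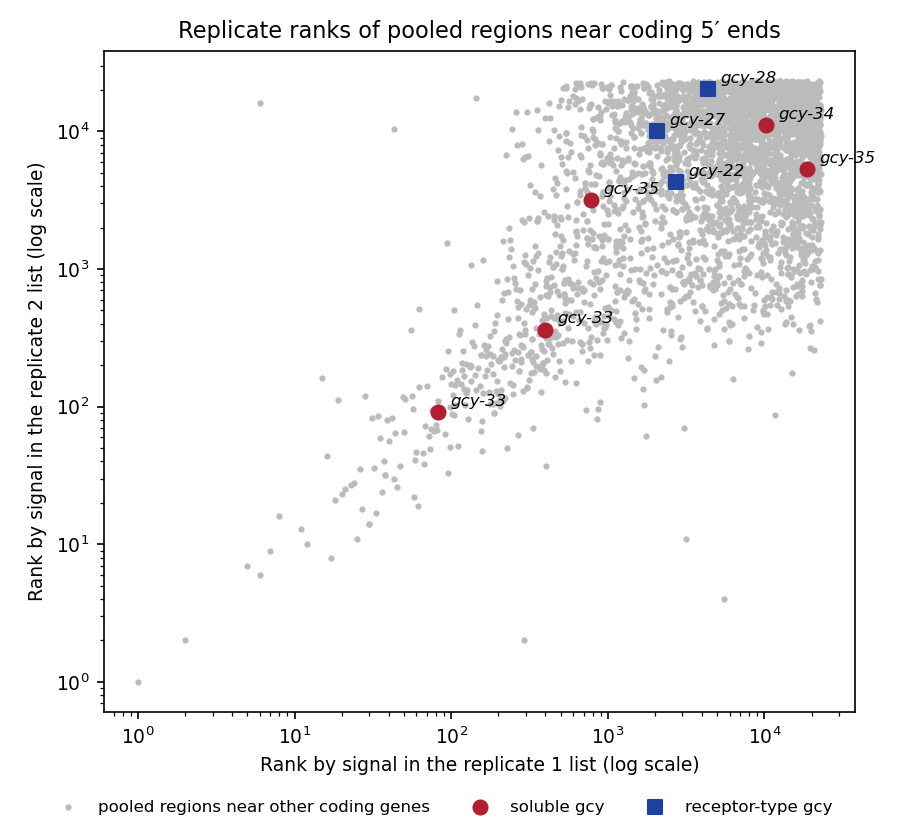
Rank of each pooled region near a coding 5′ end in the replicate 1 list (x axis, log scale) against that in the replicate 2 list (y axis, log scale), for regions matched in both lists, with those at soluble (red circles) and receptor-type (blue squares) cyclase genes named. The gcy-33 regions, at 82 and 91 and at 398 and 363, lie in the tight part of the cloud, and the other cyclase regions lie where the replicates scatter.

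The receptor-type cyclases had no IDR region, and their pooled regions were weak to moderate. The strongest was at gcy-27, at IV 17437568 to 17438011, with a pooled signal of 46.88 and rank 1525. It had a signal of 30 and rank 2052 in replicate 1, and a signal of 13.75 and rank 10036 in replicate 2. Regions of like rank had medians of 1979 and 5808, so gcy-27 stood lower than they did in replicate 2. Its summit was 1138 bp upstream of gcy-27 but in an intron of the divergent gene C06A12.8, 452 bp from that gene's 5′ end.

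The right and left ASE neurons taste salts, and each side uses its own set of receptor-type cyclases. Of the 5 genes of the right neuron (gcy-1, gcy-3, gcy-4, gcy-5 and gcy-22), gcy-22 had a pooled region (20%), and of the 4 of the left neuron (gcy-6, gcy-7, gcy-14 and gcy-20), 0 had one, against 29.9% of all coding genes. The gcy-22 region, at V 20824397 to 20824840, lay in an intron 409 bp downstream of a 5′ end, with a pooled signal of 37.51 and rank 4019. It had a signal of 28.2 and rank 2737 in replicate 1, and a signal of 17.29 and rank 4263 in replicate 2. Its ranks in the replicates were above the like-rank medians of 5389 and 9828, and it was the cyclase region that stood above both of its medians. The replicate 2 summit lay 175 bp from the pooled one, so the regions overlapped but their summits did not coincide. The pooled −log10 q was 0.184.

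The AFD neurons sense temperature through gcy-8, gcy-18 and gcy-23, and 0 of these 3 genes had a pooled region, against the same 29.9%. At gcy-18 replicate 1 had a region 1277 bp upstream and replicate 2 one 399 bp upstream, and the replicates did not overlap. Of the other 11 gcy genes, outside these neuron groups, 2 had a pooled region (18.2%), gcy-27 and gcy-28. The gene gcy-28, at I 4481198 to 4508940, has 4 annotated 5′ ends and 2 pooled regions in introns, 10004 and 13998 bp into the gene from the outermost end. One, at I 4490980 to 4491423, had a pooled signal of 34.24 and rank 5847, with rank 4352 in replicate 1 and 20373 in replicate 2. The other, at I 4494974 to 4495417, had a pooled signal of 31.56 and rank 7949, with rank 12805 in replicate 1 and no region in replicate 2.

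In the replicate lists alone, 9 receptor-type genes without a pooled region had one: gcy-1, gcy-3, gcy-6, gcy-9, gcy-12, gcy-15, gcy-18, gcy-20 and gcy-21. Their best ranks ran from 4945 (gcy-3) to 17991 (gcy-12) in replicate 1 and from 6477 (gcy-21) to 20613 (gcy-18) in replicate 2. Of the 9 genes, only gcy-1, gcy-18 and gcy-21 had a region in both replicate lists, and there the regions did not overlap between the replicates.

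Over the whole gene and the 1500 bp before it, 16 gcy genes had a pooled region (51.6%), against 8329 of all coding genes (41.7%). The gcy genes are longer, with a median length of 5784 bp, against 2027 bp over all coding genes. By branch it was 6 of 7 soluble genes (85.7%), all but gcy-32, and 10 of 24 receptor-type genes (41.7%), with median lengths of 6695 and 5768.5 bp. The 19 pooled regions that lay in gene bodies outside the windows had signals of 26.93 to 38.98, and 12 were in introns and 7 in coding sequence. None of them reached the signal of gcy-27.

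The authors' −log10 q value gives the same order of strength. It was 2.87 for both gcy-33 regions, 1.35 for the stronger gcy-35 region, 0.515 for the gcy-27 region, and 0.184 or lower for the other 6 pooled regions in gcy windows.

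The core GCGTG was searched on both strands. It lay within 100 bp of the summit at 1 of 10 pooled regions in gcy windows (10%), the stronger gcy-33 region, against 1153 of 6147 pooled regions in coding windows (18.8%) and 137 of 334 IDR regions there (41%). Near small RNA genes it was at 1 of 4 gcy regions, against 29.2% of such pooled regions in coding windows. Away from them it was at 0 of 6, against 18.4%. The median GC content of these summits was 38.3% at gcy genes and 38.8% over coding windows. The core itself was no rarer in the windows of cyclase genes: 21 of 31 held it (67.7%), against 66.1% of all coding genes. It was in the windows of all 7 soluble genes and of 14 of 24 receptor-type genes (58.3%). The gcy-32 window had 3 copies and no region in any list.

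The other genes of cyclic GMP signalling were taken from a list of 16, with the receptor cyclases daf-11 and odr-1, cyclic nucleotide-gated channels, protein kinases and phosphodiesterases. None had an IDR region, against 2.58% of all coding genes, and 3 had a pooled one (18.8%), against 29.9% of all coding genes. In replicate 1 it was 7 (43.8%), against 42.6% of all coding genes, and in replicate 2 it was 10 (62.5%), against 44.5%. Both replicate lists held a region at 7 of the 16 (43.8%), against 26.1% of all coding genes. Several 5′ ends were annotated at 9 of the 16, and 42.3% of coding genes with several had a pooled region. At egl-4, the cyclic GMP-dependent kinase of these neurons, the best region (IV 1857803 to 1858246, intron) had a pooled signal of 48.34 and rank 1355. It lay 532 bp upstream of a 5′ end, and the overlapping regions ranked 1859 and 7670 in replicates 1 and 2. At pde-4, which encodes a phosphodiesterase of the cyclic AMP type, the region (II 7643486 to 7643929) had a pooled signal of 53.7 and rank 923. The overlapping regions ranked 7126 and 543 in replicates 1 and 2. At pde-3 the region had a pooled signal of 35.05 and rank 5316. The channel genes tax-2 and tax-4 had no region in any list, and daf-11 and odr-1 had one in replicate 2 alone.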

How the data were processed

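Peak lists of 2 AHR-1-GFP ChIP-seq replicates were used on build ce11. Per the deposited file descriptions, the authors called regions per replicate and on pooled reads, with a control library not analysed here. Aligner, caller, settings and read depth: not given in the sources used here. For each region the deposited lists give a signal, used for ranks within a list, and its −log10 q. The labels name ahr-1 as antibody, and their description states anti-GFP, which was followed. Genes came from Ensembl release 115 and tRNA products and sequence from RefSeq, both WBcel235. Regions of a replicate were matched to pooled ones by an overlap of 1 bp or more, nearest summit first. Counting was checked on simulated summits. Tools were Python 3.11.15 with pandas 2.3.3, numpy 2.4.6 and, for figures, matplotlib 3.10.9. With 1 group, no test was run, and genes are not replicates. Named were all soluble cyclases, gcy genes with an IDR region, the 10 of highest pooled signal (7 had one), those with no region, nearby small RNA genes and shared neighbours, and genes of the neuron, pathway and fate lists. Any other gene was named with its values in view. The members and lists were chosen with earlier results of these data known.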

Additional observations from a re-analysis of the deposited data

How the results depend on the processing

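The values depend on the window and on regions of low rank. The count of gcy genes with an IDR region stayed at 1 under every alternative but the removal of summits near small RNA genes, which gave 0. With that removal 2 soluble genes had a pooled region, the median best pooled signal was 34.2 and the share of all coding genes 29.1%. With a window of 500 bp upstream to 200 bp downstream, 4 gcy genes and 1 receptor-type gene had a pooled region, 4 gcy genes a region in both replicate lists, the median was 33 and the share 15.5%. With 3000 bp upstream these were 11 gcy genes and 7 receptor-type genes, a median of 34.5 and a share of 41.5%. Counting each summit for its nearest coding gene gave a median of 33.1 and a share of 23.6%. Counting any overlap with the window gave 5 receptor-type genes, a median of 34.5 and a share of 33.8%. The regions above the median signal of each list gave 2 soluble genes, 5 gcy genes in both replicate lists, a median of 46.9 and a share of 17.8%. The outermost 5′ end alone, chosen after seeing the data, left 4 soluble and 2 receptor-type genes, with a median of 34.7 and a share of 27.1%. With the 13858 strongest regions of either replicate list, as many as the pooled list holds, in place of that list, 10 to 11 gcy genes and 6 to 7 receptor-type genes had a region, with medians from 13.5 to 25.1 on the scales of those lists, and 4 soluble genes had one with either. The whole replicate lists gave 14 and 13 gcy genes. Requiring the replicate regions to overlap left 6 gcy genes. GCGTG was at 3 gcy regions within 250 bp of the summit, at 0 in the longer form TNGCGTG and at 0 of the 6 without small RNA genes. No paired analysis was possible because there was 1 group. Depth is unknown, so a gene with no region cannot be called unbound.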

Other observations

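Of 13 listed regulators of their fate or of AHR-1 function, 10 had a pooled region (76.9%). This compares with 7 of 31 gcy genes (22.6%) and 29.9% of all coding genes. Of the 13, 9 have several 5′ ends and so a wider window, and the share of coding genes with several was 42.3%. The list was chosen with earlier results of these data known, and it includes ahr-1, the gene carried by the transgene. Most of the pooled regions at the 13 genes were weak, with a median best rank of 6337.5. The exception was ets-5, an ETS factor gene that specifies the BAG neurons, where gcy-31 and gcy-33 act. Its region, at X 5085437 to 5085880, was an IDR region of pooled signal 128.9 and rank 132, with rank 177 in replicate 1 and 104 in replicate 2, and lay 1133 bp upstream of a 5′ end.

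The ets-5 summit also stood on a tRNA-Ile gene, C42D8.t1, at X 5085622 to 5085695 on the minus strand. The IDR regions at genes of BAG neurons in these lists, at ets-5 and gcy-33, were thus both on tRNA-Ile genes. Of tRNA-Ile genes, 5 of 29 had an IDR region (17.2%), against 107 of all 612 nuclear tRNA genes (17.5%). The part of the tRNA genes in them was not tested.

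Among the listed regulators, che-1, which acts in the ASE neurons, and ceh-36 had no region in any list. At ceh-14 the only region was in replicate 2, of rank 15445. The ASE regulators cog-1 and die-1 had pooled regions of signal 31.32 and 32.95, and the die-1 window held no region of replicate 1. At ttx-1, a regulator of the AFD neurons, the pooled signal was 33.65. The best regions in its windows ranked 3437 and 1418 in replicates 1 and 2, and these need not overlap the pooled region. At egl-13, which acts in the URX and BAG neurons, the pooled signal was 31.35.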
